A study of Mus musculus with 6 samples.

Results

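The genes described here code for the enzymes that cut the extracellular matrix and for their tissue inhibitors. They were the rows of the deposited table whose symbol is Mmp, Adamts or Adamtsl followed by a digit, or Timp1 to Timp4. The rule found 49 of 26329 genes, made up of 21 matrix metalloproteinases (MMP), 19 ADAMTS proteases, 5 ADAMTS-like proteins (ADAMTSL) and 4 tissue inhibitors of metalloproteinases (TIMP). Total RNA was sequenced from 6 libraries of cultured mouse ovary. In 3 libraries the culture held ISRIB dissolved in DMSO (ISRIB), and in 3 it held DMSO alone (Control), so every library had the solvent. ISRIB is a small molecule that binds the initiation factor eIF2B and relieves the block on protein synthesis set by the integrated stress response. The series' design text names newborn ICR mice for an injection experiment. The labels of these libraries give no strain, age, dose or length of culture, and they do not say whether replicates came from separate animals, which means that the p-values here rest on variation among libraries that may be technical only.

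MMPs and ADAMTS proteases are zinc enzymes made as inactive proforms, and removal of the prodomain switches them on. MMPs cut collagens, gelatins and other matrix proteins, and several are anchored in the cell membrane. ADAMTS proteases trim procollagens, cut proteoglycans such as versican and aggrecan, or act on fibrillin microfibrils, while ADAMTSL proteins share their binding modules and have no protease domain. TIMPs block the active site. In the ovary this set of genes is known for the matrix remodelling that goes with follicle growth, ovulation and vessel growth.

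Levels are in FPKM as the authors deposited them, a read density per kilobase corrected for sequencing depth, and can therefore be compared between genes. Whole reads worked back from the FPKM came to 34474821 to 38002135 per library. In a check of the tissue label, all 12 oocyte markers and 8 of 9 granulosa markers had a mean FPKM of at least 1. Of the 49 members, 26 had a mean of at least 1 FPKM over the 6 libraries and entered the test, and 23 lay below. Of those 26, 2 averaged 100 FPKM or more, 12 averaged 10 to 100 and 12 averaged 1 to 10.

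A single genomic cluster held 8 of the 13 MMP genes below 1 FPKM. It lies on chromosome 9 (7272514 to 7699585, GRCm38) and runs in the order Mmp13, Mmp12, Mmp3, Mmp10, Mmp8, Mmp27, Mmp20 and Mmp7, with mean levels of 0.014 to 0.423 FPKM. Among these are collagenases, stromelysins, macrophage elastase, matrilysin and enamelysin. In their promoters, 6 of the 8 carried TGANTCA, where N is any base, within 250 bases before a RefSeq gene start (GRCm38.p6, both strands searched). This pattern takes in TGACTCA and TGAGTCA, the usual sites of AP-1, a dimer of Fos and Jun proteins. It is wider than those sites, and the Mmp20 match, TGAATCA, is not one of them. Over all 32851 RefSeq promoters, 6.75% held TGANTCA. None of the 14 tested members with a promoter in the RefSeq table held it, and neither did any of the 12 low members outside the cluster. The remaining tested members, Mmp2 and Adamts4 among them, had no promoter there and were not searched. A gene with several promoters there, such as Mmp12 or Mmp7, was counted if any of them held the pattern. The 61 bases around each match are shown because TGANTCA was in 6 low cluster genes and in no tested member searched. The match is in capitals, and all are on the plus strand. The Mmp12 site lies before the second of its RefSeq starts.
Mmp13, chr9:7272452-7272512: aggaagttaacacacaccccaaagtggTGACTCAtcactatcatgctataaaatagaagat
Mmp12, chr9:7347303-7347363: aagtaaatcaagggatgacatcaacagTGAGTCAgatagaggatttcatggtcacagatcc
Mmp3, chr9:7445749-7445809: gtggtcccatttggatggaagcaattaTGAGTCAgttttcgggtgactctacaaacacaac
Mmp10, chr9:7502252-7502312: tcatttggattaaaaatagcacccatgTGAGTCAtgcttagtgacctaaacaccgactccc
Mmp20, chr9:7628109-7628169: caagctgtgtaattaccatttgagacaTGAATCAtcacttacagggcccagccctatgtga
Mmp7, chr9:7692000-7692060: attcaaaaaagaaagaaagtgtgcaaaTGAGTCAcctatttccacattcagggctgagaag

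The letters GGGCGG, a GC box, were in the same window of 0 of the 8 cluster genes but of 11 of the 14 tested members and 9 of the 12 low members outside the cluster, against 32.7% of all promoters. TATAAA, which can overlap neither of these motifs, was in 5 of the 8, in 2 of the 14 and in 1 of the 12, against 12.4%. The cyclic AMP response element TGACGTCA and the CArG box of serum response factor were found in none of the 34 members with a promoter in the table, and TGATGNAA, the element of ATF4 and C/EBP factors, was found in 1, Mmp10 (1.55%, 1.47% and 3.45% of all promoters). A match or its lack describes these letters in this window and does not show binding. For comparison with the cluster, the 250 bases before the start of Mmp14, Adamts1 and Timp1 follow, with TATAAA and GGGCGG (or its reverse complement) in capitals, each read along its own gene. Mmp14 is among the most abundant members, and Adamts1 and Timp1 were far higher in a single library than in the others.
Mmp14, chr14:54431348-54431597, plus strand: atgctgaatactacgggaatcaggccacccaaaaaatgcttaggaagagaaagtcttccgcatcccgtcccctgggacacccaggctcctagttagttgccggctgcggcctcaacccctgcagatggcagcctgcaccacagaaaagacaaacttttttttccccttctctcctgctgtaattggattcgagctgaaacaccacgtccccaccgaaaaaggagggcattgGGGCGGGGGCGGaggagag
Adamts1, chr16:85803114-85803363, minus strand: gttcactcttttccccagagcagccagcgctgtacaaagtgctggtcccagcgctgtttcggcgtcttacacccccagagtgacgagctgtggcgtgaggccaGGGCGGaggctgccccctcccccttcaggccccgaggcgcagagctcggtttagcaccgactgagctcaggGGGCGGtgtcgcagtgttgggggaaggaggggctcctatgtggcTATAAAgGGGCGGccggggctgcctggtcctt
Timp1, chrX:20869916-20870165, plus strand: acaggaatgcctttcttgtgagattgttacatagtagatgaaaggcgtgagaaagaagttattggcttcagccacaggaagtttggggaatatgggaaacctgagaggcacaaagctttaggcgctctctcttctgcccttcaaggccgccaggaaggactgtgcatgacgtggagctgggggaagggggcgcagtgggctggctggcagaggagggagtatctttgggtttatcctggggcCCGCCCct

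Levels were dominated by a pair of MMPs that work together. Mmp2, which codes for gelatinase A (chromosome 8, 92827291 to 92853420), had 208, 192 and 199 FPKM in ISRIB and 204, 207 and 213 FPKM in Control. Mmp14, the membrane enzyme that activates pro-MMP2 (chromosome 14, 54431612 to 54445364), had 181, 171 and 177 FPKM in ISRIB and 194, 176 and 190 FPKM in Control. For each gene the ISRIB and Control libraries overlapped, and both genes lay above every other member in every library. Mmp2 and Mmp14 together made up 76.6 ± 1.58% of the summed FPKM of all MMP genes in ISRIB and 75.2 ± 2.0% in Control (SD, n = 3 each). Timp2, which in its complex with Mmp14 captures pro-MMP2 (chromosome 11, 118301069 to 118355740), was the next gene, with 70.2, 72.9 and 77.8 FPKM in ISRIB and 86.4, 75.3 and 76.6 FPKM in Control. Per kilobase, Timp2 stood at 0.369 ± 0.0279 of the Mmp2 level in ISRIB and 0.382 ± 0.0352 in Control (SD, n = 3 each), with overlapping libraries.

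Mmp11 (stromelysin-3), Adamts2 (the main procollagen I N-proteinase), Timp1 and Timp3 followed at means of 40.8 to 69.2 FPKM over the 6 libraries. After them came Adamts19, an ADAMTS of gonadal tissue, at 29.9 FPKM, then Adamts10, Adamts1, Adamts9, Mmp15, Mmp23 and Mmp19 at 11.4 to 26.7 FPKM. Down this order of 26 genes, the range over 6 libraries overlapped that of the gene above it except at Timp2 and Adamts19, so most neighbours were not separated beyond their spread. The summed TIMP level was 0.329 ± 0.0400 of the summed MMP level in ISRIB and 0.312 ± 0.0238 in Control (SD, n = 3 each), again overlapping.

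**Figure D1:**
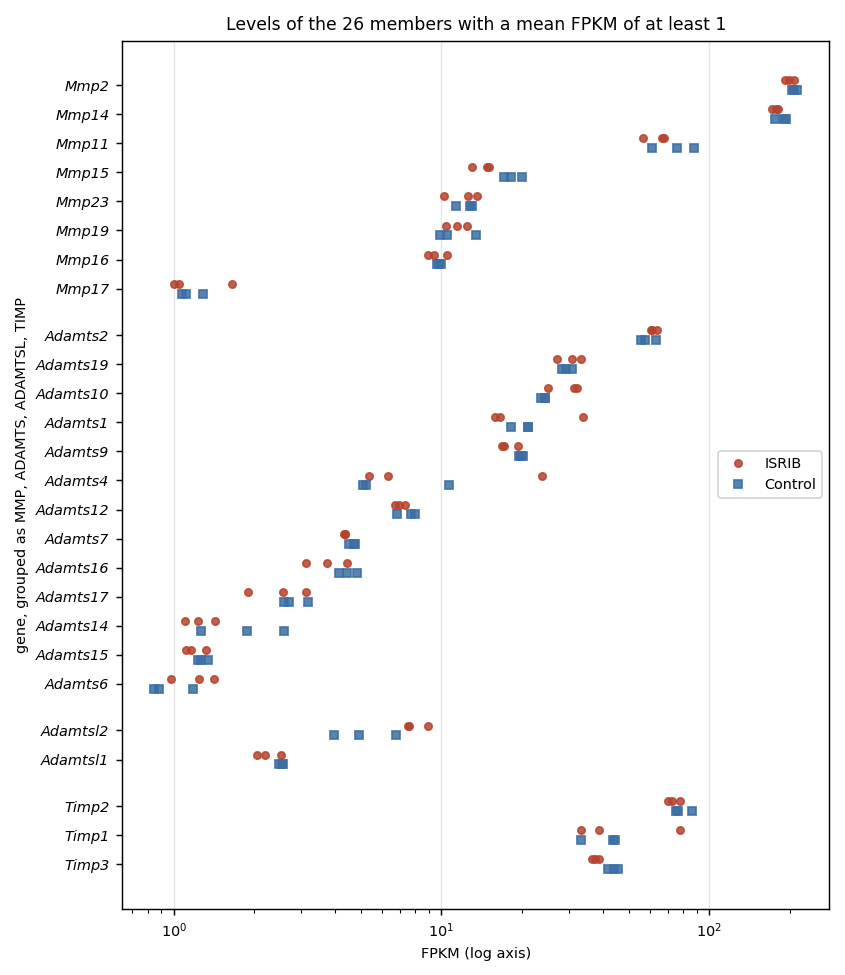
FPKM of the 26 members with a mean of at least 1, on a log axis, 1 point per library, with ISRIB as circles above Control as squares for each gene. Mmp2 and Mmp14 lie to the right of all others, and Adamts1, Adamts4 and Timp1 each have 1 ISRIB library far to the right of the other 2.

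The 23 members below 1 FPKM had 3 to 1457 reads each over the 6 libraries. Besides the chromosome 9 cluster they included Mmp9 (gelatinase B), with 0.616 ± 0.208 FPKM in ISRIB and 0.681 ± 0.0582 in Control, and Adamts5, an aggrecan-cutting enzyme, with 0.633 ± 0.0580 and 0.663 ± 0.0452 FPKM (ISRIB, then Control, SD, n = 3 each). Adamts3, the procollagen II N-proteinase, was the highest of them, with 0.716 ± 0.179 FPKM in ISRIB and 0.872 ± 0.0888 in Control. Adamts13, which cuts von Willebrand factor, had 78 reads over the ISRIB libraries and 65 over the Control libraries. The neutrophil marker list, whose cells carry Mmp8 and Mmp9, summed to 1.13 to 4.02 FPKM in ISRIB and 1.57 to 2.63 in Control.

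Within the cluster, Mmp13 (collagenase 3) had 13, 17 and 2 reads in ISRIB and 20, 30 and 26 reads in Control, so all ISRIB libraries lay below all Control libraries. Mmp27 had 1, 2 and 4 reads in ISRIB and 0 reads in each Control library, where a count of 0 allows up to 3 reads by counting error alone. Mmp3 (stromelysin-1) had 1, 9 and 0 reads in ISRIB and 7, 15 and 4 in Control, and overlapped. With the filter on low values removed, the log2 fold change was −0.32 for Mmp13 (limma adjusted p = 0.392) and 0.08 for Mmp27 (adjusted p = 0.474), so neither difference was detectable at this depth. Every fold change given is ISRIB over Control. Unless another setting is named or a range over settings is given, 0.5 was first added to each FPKM. That step shrinks the changes of genes with low levels.

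**Figure D2:**
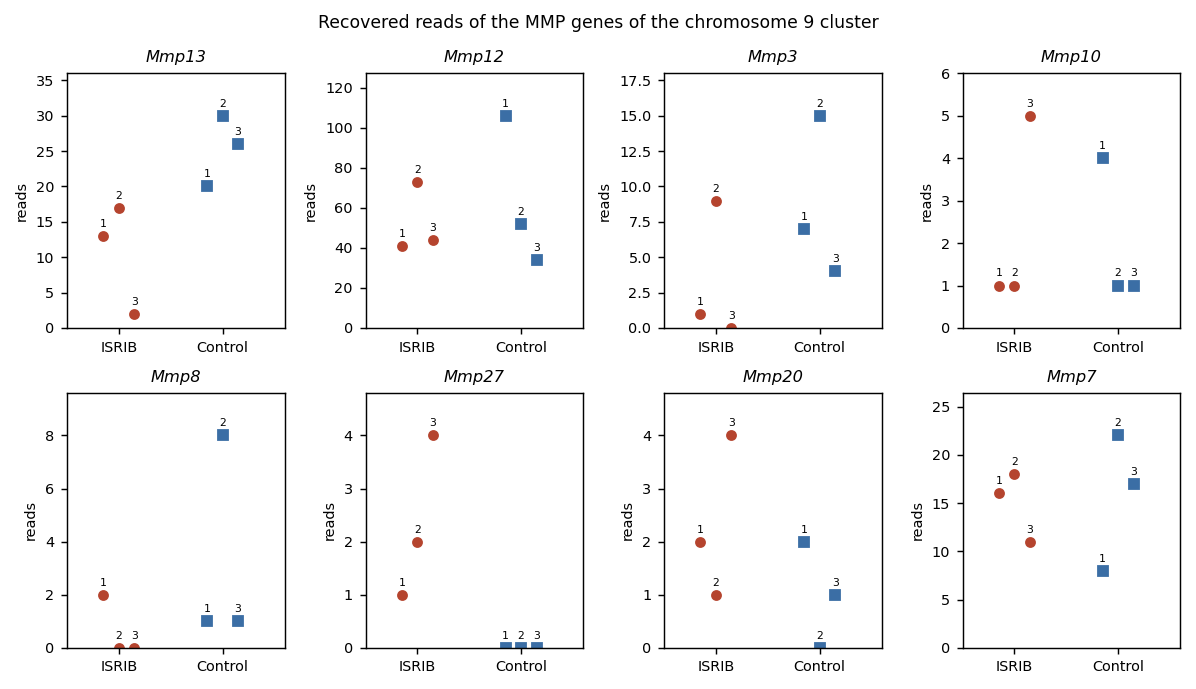
Reads per library, worked back from the FPKM, for the 8 MMP genes of the chromosome 9 cluster in genomic order, with ISRIB left of Control and the replicate number beside each point. Mmp13 has all ISRIB libraries below all Control libraries, Mmp27 has reads in ISRIB only, and the other 6 genes overlap.

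Timp4, which codes for the inhibitor with the narrowest tissue range, was also under the filter. It had 39, 25 and 117 reads in ISRIB and 10, 22 and 17 in Control, or 0.364, 0.228 and 1.10 FPKM in ISRIB and 0.0973, 0.195 and 0.150 FPKM in Control. ISRIB replicate 3 was the highest, and all ISRIB libraries lay above all Control libraries, ISRIB replicate 2 by a small margin. Its log2 fold change was 0.63 without the filter (limma SE 0.291, adjusted p = 0.532) and did not pass. Adipocytes are a known source of Timp4. In an adipocyte list of 9 genes in the table, chosen after the value of Timp4 was seen, the summed level was 29.6 to 34.7 FPKM in ISRIB and 25.3 to 27.2 in Control, and of the 4 tested genes 3 were above 0 and 1 below. Fabp4 and Lpl were higher in ISRIB without overlap, and Plin1 had 2.41, 2.86 and 4.84 FPKM in ISRIB and 2.83, 2.19 and 2.87 FPKM in Control. Plin1, Adipoq, Cfd, Cidec and Plin4 were all highest in ISRIB replicate 3, the library with the highest Timp4, and the last 4 reached 0.150 FPKM at most. Pck1 and Retn of the same list went the other way. Pck1 had its lowest value in ISRIB replicate 3, at 0.651 FPKM. Retn was highest in ISRIB replicate 1, at 0.278 FPKM, against 0.0430 FPKM in ISRIB replicate 3. Adipoq was at 0 in 1 library of each group. The part of such cells in the Timp4 values was not tested, and in bulk RNA a change in the number of cells and a change in RNA per cell cannot be told apart.

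The comparison of ISRIB with Control called no member. Of the 12922 genes tested, 0 (0%) had a limma adjusted p under 0.05, and so 0 of the 26 members did. At an unadjusted p under 0.05 there were 5 members (Mmp15, Timp3, Adamtsl2, Adamts10 and Adamts9), or 2 higher and 3 lower in ISRIB, where 16.4% of all genes tested, 8.71% higher and 7.73% lower, met that mark. The 3 ISRIB and 3 Control libraries did not overlap for 6 members, those 5 and Adamts7, or 23.1% of 26, against 22.8% of all genes tested, so the share of members is that of the background. In limma's voom on the recovered reads 120 genes (0.929%) passed, none of them a member, and 6 members had an unadjusted p under 0.05, against 17.3% of all genes tested in that fit. The count of members at that mark was 10 after TPM rescaling, against 19.6% of all genes tested, and 3 without ISRIB replicate 3, against 12.7%. Over the 17 other settings tried, the smallest adjusted p of any tested member was 0.061, for Mmp15.

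Of the 26 members, 10 had a log2 fold change above 0 and 16 below, where 51.8% of all genes tested were above 0 and 48.2% below. The medians were −0.05 for the 8 MMP genes, −0.07 for the 13 ADAMTS genes and −0.11 for the 3 TIMP genes, beside 0.01 for all genes tested. For the 2 ADAMTSL genes the values were 0.59 and −0.13. ADAMTS genes are long, with a median of 8467 bases as implied by the FPKM against 3549 for all genes tested. With any trend of level on length removed from each library, the ADAMTS median was −0.03 and the MMP median −0.07.

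**Figure D3:**
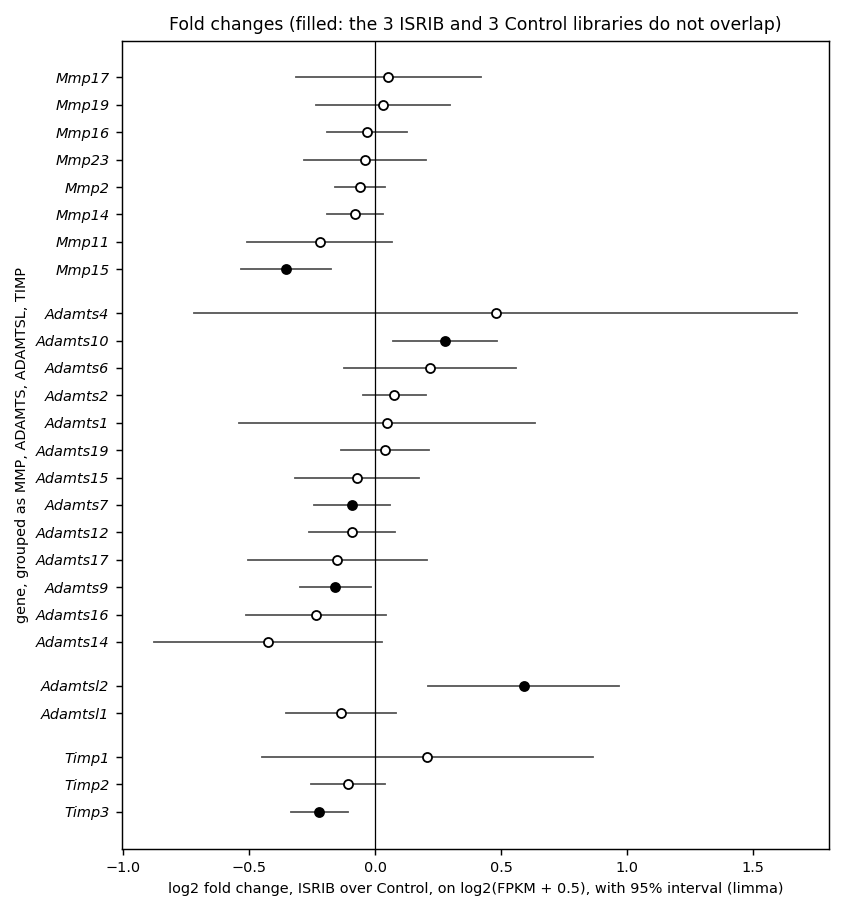
Log2 fold change of each tested member, ISRIB over Control, with its 95% interval from limma, by class. Filled points are the 6 members whose libraries do not overlap between groups, and the widest intervals are those of Adamts4, Timp1 and Adamts1.

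Among the MMPs, Mmp15 had the smallest p. It codes for a membrane-type MMP (chromosome 8, 95352268 to 95375080, plus strand) and had 14.8, 15.1 and 13.0 FPKM in ISRIB and 19.9, 18.2 and 17.1 FPKM in Control. All ISRIB libraries lay below all Control libraries, with means of 14.3 ± 1.14 in ISRIB and 18.4 ± 1.42 in Control (SD, n = 3 each). The log2 fold change was −0.35 (SE 0.0775, 95% interval −0.53 to −0.18, limma adjusted p = 0.112), and −0.41 to −0.29 over the other settings.

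Of the other membrane-type MMPs, 3 were tested and Mmp24 and Mmp25 lay below 1 FPKM. Mmp14 had −0.08 on the log2 scale (95% interval −0.19 to 0.03, limma adjusted p = 0.453) and Mmp16, with 9.58 FPKM in ISRIB and 9.78 in Control, one of −0.03 (−0.19 to 0.13). Mmp17, which is held by a lipid anchor, had 1.66, 1.01 and 1.051 FPKM in ISRIB and 1.11, 1.07 and 1.28 FPKM in Control, with ISRIB replicate 1 above the Control range and the other 2 below it. For the secreted enzyme Mmp2 the log2 fold change was −0.06 (−0.16 to 0.04), so a change of more than about 0.16 in either direction lies outside its interval.

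Mmp11 was uneven within groups, at 56.7, 66.4 and 67.8 FPKM in ISRIB and 87.4, 61.1 and 75.7 FPKM in Control. Control replicate 2 fell inside the ISRIB range, and the log2 fold change was −0.22 (95% interval −0.51 to 0.07, limma adjusted p = 0.421). Mmp11 shares 155 exon bases with Chchd10 on the other strand, and strand use in the counting is not given. Mmp23, a membrane MMP first known from reproductive tissue, had 12.1 ± 1.74 FPKM in ISRIB and 12.4 ± 0.894 in Control. Mmp19 had 11.5 ± 1.04 FPKM in ISRIB and 11.3 ± 1.90 in Control (SD, n = 3 each), with overlapping libraries for both. Mmp19 shares 22.3% of its exon bases with Tmem198b on the other strand, which averaged 6.59 FPKM.

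Timp3, the inhibitor that stays bound to the matrix and also blocks ADAM17 and ADAMTS4 (chromosome 10, 86300372 to 86349506, plus strand), had 37.5, 38.7 and 36.6 FPKM in ISRIB and 45.7, 44.3 and 41.8 FPKM in Control. All ISRIB libraries were below all Control libraries. Its log2 fold change was −0.22 (SE 0.0485, 95% interval −0.33 to −0.11, limma adjusted p = 0.113), and −0.28 to −0.19 over the other settings. Of its annotated exon bases 21.3% are shared with Syn3 on the other strand, which measured 0.0638 FPKM on average. Timp2 had a log2 fold change of −0.11 (95% interval −0.25 to 0.04, limma adjusted p = 0.441), with ISRIB replicate 3 inside the Control range.

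Adamtsl2 had the largest positive log2 fold change of the tested members. Its protein binds fibrillin and latent TGF-beta binding protein (chromosome 2, 27079379 to 27108981, plus strand). It had 7.49, 7.55 and 8.91 FPKM in ISRIB and 3.98, 4.94 and 6.79 FPKM in Control, with no overlap and a wide spread in Control. The log2 fold change was 0.59 (SE 0.164, 95% interval 0.21 to 0.97, limma adjusted p = 0.152), with 0.43 to 0.78 over the other settings. Adamtsl1 had 2.53, 2.20 and 2.05 FPKM in ISRIB and 2.54, 2.56 and 2.47 FPKM in Control, with ISRIB replicate 1 inside the Control range.

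Adamts10, a protease of fibrillin microfibrils (chromosome 17, 33524204 to 33553782, plus strand), had 25.0, 31.2 and 32.1 FPKM in ISRIB and 24.4, 23.5 and 24.3 FPKM in Control. ISRIB replicate 1 lay just above Control and the other ISRIB libraries well above it. The log2 fold change was 0.28 (SE 0.0894, 95% interval 0.07 to 0.48, limma adjusted p = 0.201), and 0.39 without ISRIB replicate 1 (adjusted p = 0.0624). Its nearest relative Adamts6 was low, at 0.979, 1.24 and 1.41 FPKM in ISRIB and 0.846, 0.884 and 1.18 FPKM in Control, and overlapped. Adamts17, known for the same fibrillin setting, had 2.52 ± 0.605 FPKM in ISRIB and 2.82 ± 0.325 in Control (SD, n = 3 each).

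Adamts9, a proteoglycan-cutting enzyme (chromosome 6, 92772699 to 92943492, minus strand), had 19.3, 16.8 and 17.2 FPKM in ISRIB and 20.2, 19.9 and 19.6 FPKM in Control. ISRIB replicate 1 was just under the lowest Control library. The log2 fold change was −0.16 (SE 0.0609, 95% interval −0.30 to −0.02, limma adjusted p = 0.255), and −0.10 with the length trend removed. Its exons share 9.18% of their bases with the opposite-strand gene A730049H05Rik, which averaged 0.939 FPKM. Adamts7, which cuts cartilage oligomeric matrix protein, had 4.33, 4.37 and 4.35 FPKM in ISRIB and 4.50, 4.78 and 4.72 FPKM in Control, which gave −0.09 on the log2 scale (SE 0.065, limma adjusted p = 0.524). Its ISRIB libraries did not overlap Control, although the step is small, and with the length trend removed the log2 fold change was −0.03. Adamts12, of the same substrate class, overlapped at 6.98 ± 0.297 FPKM in ISRIB and 7.49 ± 0.594 in Control (SD, n = 3 each).

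**Figure D4:**
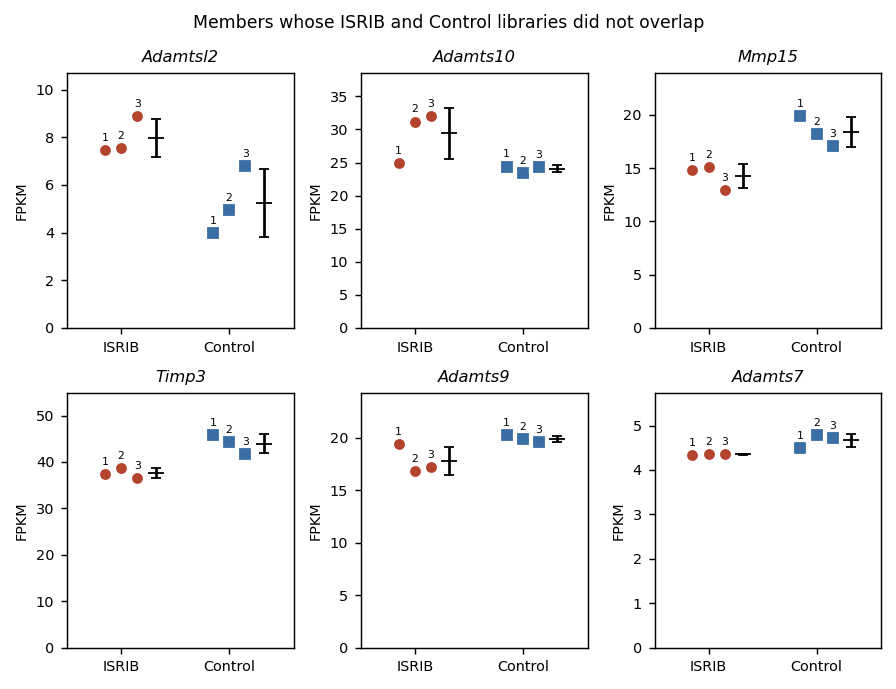
FPKM per library of the 6 tested members whose groups do not overlap, ISRIB left of Control, with the replicate number beside each point and mean ± SD (n = 3) as the bar. Adamtsl2 and Adamts10 lie higher in ISRIB, and Mmp15, Timp3, Adamts9 and Adamts7 lower, with no member past the test.

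Beside these values stand the marker lists of the cells in the tissue. The 12 oocyte markers had a median of 0.10, with 8 above 0 and 4 below, and sums of 1668 to 1839 FPKM in ISRIB and 1507 to 1705 in Control. The 8 tested granulosa markers had a median of 0.11, with 4 above 0 and 4 below, and sums of 582 to 711 FPKM in ISRIB and 529 to 630 in Control. The 10 endothelial markers all had log2 fold changes below 0 (median −0.16). Of them 5 lay lower without overlap, as did 12% of all genes tested. The endothelial markers summed to 209, 238 and 241 FPKM in ISRIB and 248, 243 and 269 FPKM in Control. The 9 pericyte and smooth muscle markers had a median of −0.03, with 4 above 0 and 5 below, and sums of 109 to 119 FPKM in ISRIB and 120 to 130 in Control. The 8 tested macrophage markers had a median of −0.07 and sums of 86.3 to 87.7 FPKM in ISRIB and 82.5 to 90.4 in Control. The surface epithelium markers, 7 of them tested, were all below 0 (median −0.18), with sums of 223 to 232 FPKM in ISRIB and 223 to 286 in Control. Control replicate 1 stood apart in that list, with a mean log2 deviation of 0.30 against 0.0012 and −0.09 in the other Control libraries and −0.09 to −0.05 in ISRIB, and it also had the highest Mmp11. The 7 tested theca and stroma markers had a median of 0.04, with 4 above 0 and 3 below. The whole list summed to 699 to 799 FPKM in ISRIB and 690 to 741 in Control. Cyp17a1, Cyp11a1 and Lhcgr of that list, genes of theca cells, lay below 1 FPKM and were not tested. Also lower without overlap were 3 macrophage, 2 granulosa, 2 pericyte and smooth muscle, 1 oocyte and 1 theca and stroma marker. Of the tested markers in these lists, 2 of 12 oocyte markers and 1 of 9 pericyte and smooth muscle markers were higher without overlap. Of all genes tested, 10.8% were higher without overlap. The part of any of these cells in the members' values was not tested.

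Adamts2 and Adamts14 both trim procollagens at the N-terminal end. Adamts2 (chromosome 11, 50602084 to 50807573) had 60.7, 61.4 and 63.8 FPKM in ISRIB and 55.8, 57.4 and 63.3 FPKM in Control, a log2 fold change of 0.08 (95% interval −0.05 to 0.20). Adamts14 was far lower, with 1.23, 1.43 and 1.10 FPKM in ISRIB and 2.58, 1.26 and 1.88 FPKM in Control. Control replicate 2 lay inside the ISRIB range, and the log2 fold change was −0.42 (95% interval −0.88 to 0.03, limma adjusted p = 0.330), or −0.63 without that library and −0.23 without Control replicate 1. Neither passed, and the difference between these genes was not tested.

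Adamts19 (chromosome 18) had 27.03, 30.8 and 33.3 FPKM in ISRIB and 29.3, 28.2 and 30.7 FPKM in Control, with Control inside the ISRIB range. Its log2 fold change was 0.04 (95% interval −0.14 to 0.22), and −0.01 after TPM rescaling, which shifts the median of all genes to −0.05. Adamts16, an ADAMTS also known from the gonad, had 3.11, 4.43 and 3.73 FPKM in ISRIB and 4.83, 4.45 and 4.15 FPKM in Control, and overlapped through ISRIB replicate 2 (log2 fold change −0.23, limma adjusted p = 0.368). The low proteoglycanase Adamts15 had 1.2 ± 0.108 FPKM in ISRIB and 1.28 ± 0.0590 in Control (SD, n = 3 each).

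Adamts4, Timp1 and Adamts1 were each far higher in ISRIB replicate 1 than in any other library. Adamts4, the proteoglycanase also called aggrecanase-1 (chromosome 1, 171250421 to 171260637, plus strand), had 23.8, 6.32 and 5.36 FPKM in ISRIB and 5.11, 10.6 and 5.23 FPKM in Control. Timp1, the secreted and strongly inducible inhibitor (X chromosome, 20870166 to 20874735, plus strand), had 77.7, 38.9 and 33.1 FPKM in ISRIB and 43.9, 44.6 and 33.2 FPKM in Control. Adamts1, the versican-cutting enzyme needed for normal ovulation in mice (chromosome 16, 85793827 to 85803113, minus strand), had 33.8, 16.5 and 15.9 FPKM in ISRIB and 21.02, 21.1 and 18.1 FPKM in Control. In each gene the other 2 ISRIB libraries lay within or below the Control range.

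On the log2 scale ISRIB replicate 1 stood above the median of the other 5 libraries by 2.05 for Adamts4, 0.99 for Timp1 and 0.88 for Adamts1. These were the only tested members at 0.5 or more from that median in either direction, 3 of 26 (11.5%) against 2.59% of all genes tested, a comparison made after the values were seen and without a test. The log2 fold changes with all libraries were 0.48 for Adamts4 (SE 0.518, limma adjusted p = 0.685), 0.21 for Timp1 (SE 0.285, adjusted p = 0.760) and 0.05 for Adamts1 (SE 0.254, adjusted p = 0.942). Without ISRIB replicate 1 they were −0.17, −0.16 and −0.30 (limma adjusted p = 0.781, 0.546 and 0.128), so all 3 changed sign without that library. The value of Adamts1 was also below 0 without Control replicate 3 (−0.022) and after TPM rescaling (−0.0052). Without ISRIB replicate 1, Adamts1 had no overlap, with both remaining ISRIB libraries below Control. With that library left out, 37.8% of all genes tested had no overlap in either direction.

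Immediate early genes, transcripts that cells switch on within minutes of a stimulus or of handling, followed the same libraries. In ISRIB replicate 1, 16 of 17 had their highest value, and Control replicate 2 came second for 16 of 17. Their summed level was 764, 341 and 303 FPKM in ISRIB and 280, 526 and 302 FPKM in Control. Fos had 25.6, 9.78 and 7.52 FPKM in ISRIB and 5.42, 18.1 and 7.59 FPKM in Control, and Junb had 96.3, 30.7 and 21.2 FPKM in ISRIB and 22.9, 57.8 and 27.8 FPKM in Control. All 3 members had their second highest value in Control replicate 2, by a wide margin for Adamts4 and by under 1 FPKM over Control replicate 1 for Timp1 and Adamts1. Whether handling or treatment lies behind the values of ISRIB replicate 1 was not tested.

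**Figure D5:**
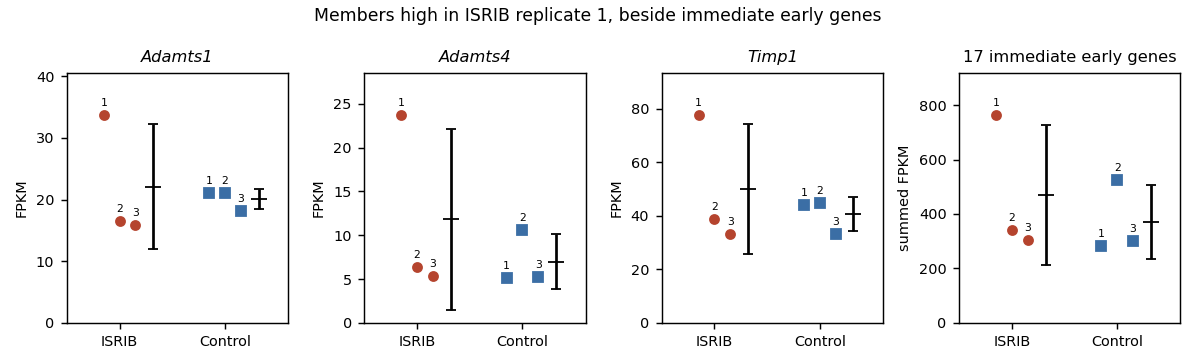
FPKM per library of Adamts1, Adamts4 and Timp1 and the summed FPKM of 17 immediate early genes, ISRIB left of Control, with replicate numbers beside the points and mean ± SD (n = 3) as the bar. ISRIB replicate 1 is the highest point in each panel, and Control replicate 2 is the second highest, clearly so only for Adamts4 and the immediate early genes.

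Genes that act with the members were read from lists of their activators, other inhibitors and substrates, and 0 members of any list had a limma adjusted p under 0.05. Among activators and cofactors of MMPs, 3 of 9 tested genes were above 0 and 6 below (median −0.08). The proprotein convertase Pcsk6 had 104, 97.7 and 91.8 FPKM in ISRIB and 133, 123 and 113 FPKM in Control (log2 fold change −0.33, adjusted p = 0.104). Furin, which activates Mmp14 and the ADAMTS proteases, had 35.8, 34.6 and 34.6 FPKM in ISRIB and 42.2, 40.4 and 37.6 FPKM in Control (−0.19, adjusted p = 0.142). Bsg, the MMP inducer basigin, had 330, 314 and 335 FPKM in ISRIB and 283, 252 and 287 FPKM in Control (0.25, adjusted p = 0.119). None of these 3 overlapped between groups. The plasminogen activator Plau was highest in ISRIB replicate 1, at 58.3, 35.9 and 38.6 FPKM in ISRIB and 38.3, 40.4 and 30.6 FPKM in Control.

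Of the protease inhibitors other than TIMPs, 7 of 8 tested genes were above 0 (median 0.12). Smallest in p was Serpinh1 (0.15, limma adjusted p = 0.136), which is a collagen chaperone rather than an inhibitor of proteases. The broad inhibitor A2m had 1.69, 1.42 and 1.81 FPKM in ISRIB and 1.27, 0.997 and 1.27 FPKM in Control (0.35, adjusted p = 0.234). Serpinb2 was at 7.73 FPKM in ISRIB replicate 1 and at 0.0127 to 1.08 FPKM in the other 5 libraries. Reck, a membrane inhibitor of MMPs, had 12.9 ± 0.756 FPKM in ISRIB and 13.6 ± 0.490 in Control (SD, n = 3 each).

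Among ADAM sheddases, the membrane relatives of the ADAMTS proteases, 2 of 8 tested genes were above 0 and 6 below (median −0.06). Adam19 had 11.9 ± 0.735 FPKM in ISRIB and 13.7 ± 0.419 in Control, and Adam10 had 43.4 ± 2.11 and 47.6 ± 0.912 FPKM (ISRIB, then Control, SD, n = 3 each), both without overlap and with limma adjusted p of 0.187 and 0.239. Of 9 tested proteoglycans, link proteins and nidogens 2 were above 0, and the basement membrane gene Nid1 had 122, 132 and 126 FPKM in ISRIB and 149, 153 and 151 FPKM in Control (−0.25, adjusted p = 0.0832). The versican gene Vcan, the substrate of Adamts1, Adamts4 and Adamts9, had 9.70, 8.83 and 8.66 FPKM in ISRIB and 8.99, 9.55 and 10.7 FPKM in Control, and overlapped.

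The fibrillin microfibril and elastic fibre genes, where Adamtsl2 and Adamts10 act, had 5 of 16 above 0 and 11 below (median −0.07). Fbn2 had 21.8, 21.8 and 21.5 FPKM in ISRIB and 25.4, 25.8 and 23.5 FPKM in Control (−0.19, limma adjusted p = 0.134), and Fbn1 had 37.9 ± 3.21 FPKM in ISRIB and 40.9 ± 1.43 in Control (SD, n = 3 each). In procollagen processing and uptake 2 of 7 tested genes were above 0 (median −0.04). On the log2 scale the uptake receptor Lrp1, which clears MMPs and TIMPs, stood at −0.18 (limma adjusted p = 0.213) and Col3a1 at −0.12 (adjusted p = 0.216), both without overlap.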

How the data were processed

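RNA was isolated from cultured ovary with a tissue miniprep system and made into libraries with a universal RNA-seq kit, per the labels' protocols. Expression was deposited by the authors as FPKM, 1 column per library. Tools listed in the submitters' processing notes are HTSeq, HISAT2, fastp, DESeq2 and R 3.2.0, with build mm10 and no roles. The sources used here do not give the annotation, the strand setting or the library total behind the FPKM.

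Members and gene lists were chosen with earlier results of these data known. A mean of 1 FPKM or more was required (12922 genes), and the test was made on log2(FPKM + 0.5) with limma 3.58.1 in R 4.3.3 (ISRIB against Control, empirical Bayes, intensity trend; calls by two-sided p below 0.05 after Benjamini-Hochberg adjustment). All tested members are named, and up to 3 genes per list by smallest p; Plau, Serpinb2, Reck, Vcan, Fbn1, Fos, Junb, the adipocyte genes and the members named below 1 FPKM other than Adamts3 were added after their values were seen, as were the promoters shown. Whole reads were worked back from the FPKM for 100% of genes (tolerance 0.01 read). The limit of 3 reads beside a count of 0 covers counting error only, whereas limma's intervals rest on variation among libraries. Positions came from GENCODE M21 on GRCm38, which mm10 denotes too, and promoters from RefSeq GRCm38.p6, with 34 of 49 members matched by symbol. Both fit and read recovery were tested on simulated data. Tables and figures used Python 3.11.15, pandas 2.3.3 and matplotlib 3.10.9. Alternatives were other pseudocounts, filters and scalings, no trend, a replicate block, each library left out, voom on recovered reads and a loess correction (span 0.5) for gene length.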

Additional observations from a re-analysis of the deposited data

How the results depend on the processing

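No member had an adjusted p under 0.05 in any of the 17 other settings, and 17 of the 26 tested members kept the sign of their log2 fold change in all of them. The other 9 changed sign somewhere. Without ISRIB replicate 1 the values were −0.30 for Adamts1, 0.0057 for Adamts17, −0.17 for Adamts4, 0.017 for Mmp16, −0.11 for Mmp17, −0.03 for Mmp19, 0.074 for Mmp23 and −0.16 for Timp1. TPM rescaling gave −0.0052 for Adamts1, −0.012 for Adamts19 and −0.019 for Mmp19. Leaving out single libraries gave ranges of −0.30 to 0.24 for Adamts1, −0.053 to 0.16 for Mmp19, −0.028 to 0.12 for Adamts19, −0.17 to 0.86 for Adamts4, −0.16 to 0.45 for Timp1, −0.29 to 0.0057 for Adamts17, −0.096 to 0.017 for Mmp16, −0.11 to 0.15 for Mmp17 and −0.12 to 0.074 for Mmp23. Over all genes, 8 were called with a mean FPKM of at least 5, 11 with the replicate block, 120 with voom and 23 with voom and the length correction. The median of the ADAMTS genes was 0.048 (mean FPKM of at least 5), −0.14 (TPM rescaling), −0.10 (voom), −0.034 (length correction) and −0.041 (both). That of the MMP genes was −0.10 after TPM rescaling, and the ADAMTSL value was 0.59 with a mean FPKM of at least 5, where only Adamtsl2 is left. With single libraries left out, the medians ranged over −0.094 to −0.036 for MMP, −0.088 to −0.036 for ADAMTS, 0.15 to 0.31 for ADAMTSL and −0.16 to −0.046 for TIMP genes. The members without overlap then numbered 7 to 12, the 12 without ISRIB replicate 1 (46.2%, against 37.8% of all genes tested) and the 7 without Control replicate 1 (26.9%, against 32.5%). Whether same-numbered libraries were handled together is not given in the labels. Same-numbered ISRIB and Control libraries correlated in their deviations from the group means at −0.190, −0.0909 and 0.192. Only ISRIB replicate 3 correlated best with the Control library of its own number. With 3 libraries per group these values can neither show nor exclude a pairing. The block changed no member's call. Members under 1 FPKM, with 3 to 1457 reads in all, allow no statement on small differences. The causes of these shifts were not tested.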
